A study of Mus musculus with 2 samples.

Results

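Interferon stimulated genes (ISGs) were described in the RM-1 orthotopic prostate tumor, as a list of 37 genes chosen by name, of which 36 were among the 32285 genes of the files. Mx1 was not analysed here. The list held 20 analysed effectors against virus, 8 interferon-inducible GTPases, 4 sensors of nucleic acid and 4 regulators of the response. RM-1 is a mouse prostate cancer (PCa) cell line that the study used as a model of intrinsic resistance to the androgen receptor antagonist enzalutamide (ENZ). The cells had been injected into the prostate of C57BL/6 mice, and the labels give the genotype as WT in both groups. Single cell RNA sequencing (scRNA-seq) was deposited for 1 library of a vehicle-treated tumor (control) and 1 library of an ENZ-treated tumor, from a pair of mice, with immune cells enriched during sorting.

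Interferons are secreted cytokines that bind paired receptors on the cell surface and signal through Janus kinases to STAT transcription factors. Type I interferons act mainly through a complex with STAT2 and IRF9 that binds the interferon-stimulated response element (ISRE), and interferon gamma acts mainly through factors that bind the gamma-activated site (GAS). Their target genes block viral replication, sense nucleic acid and aid antigen presentation, and many are also transcribed at a basal level in immune cells.

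The matrices held 170830346 unique molecular identifiers (UMIs, each counting 1 captured transcript) for the control tumor and 162030149 for the ENZ-treated tumor. After barcodes with under 1000 UMIs or over 20% mitochondrial UMIs were left out, 12253 and 10271 remained, and 39 barcode sequences were found in both libraries. Cancer cells, gated by Cacna2d1, Rbfox2, Kif21a and Rhox5 with at most 1 Ptprc UMI, numbered 4006 (control) and 4469 (ENZ), with a median of 21024.5 and 22115 UMIs. The immune types gated by their markers held 344 and 550 T cells, 449 and 193 NK cells, 856 and 311 neutrophils, 839 and 1103 monocytes, 1134 and 579 macrophages, and 136 and 60 type 1 conventional dendritic cells (cDC1). Further markers that the gates had not used were highest in their own type in 7 of 7 types in both libraries. Fibroblasts and endothelial cells were not gated, so this check did not cover them. B cells, other dendritic cells and barcodes of mixed or no type were not described.

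With 1 library per condition there is no replicate check, and no test was made. Each level below is in CPM, a gene's summed UMIs scaled to the same total in each library and type, each interval is a 95% interval of counting error only, and a ratio is ENZ over control. A difference between the libraries cannot be told apart from a difference between the 2 mice or their processing. A gene passed the level limit in a type with a mean of at least 20 CPM and at least 100 UMIs over both libraries, and it was counted as higher or lower when the ratio passed 1.5 in either direction.

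RefSeq promoter windows of 300 bases (build GRCm38.p6, 250 bases before to 50 after the start) were found for 27 of the 36 members. No window was at hand for Ifi27l2a, Ifi204, Usp18, Gbp4, Iigp1, Zbp1, Rtp4, Parp14 and Dhx58. An ISRE-like motif, searched on both strands as GAAA, any 2 bases and GAAA, lay in a window of 17 of the 27 members (63.0%), against 3.99% of all 27025 genes of the table. A GAS-like motif, TTC, any 3 bases and GAA, lay in a window of 10 members (37.0%), against 9.55% of all genes, and 6 members (22.2%) held both, against 0.614%. These matches are letters in a window and not shown sites of binding.

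Windows of 4 members that recur in the results are shown with the motif in capitals. Isg15 was lower in most types, Ifit1 was higher in neutrophils, Gbp2 had the highest ratio in cancer cells and Irf1 the lowest in cDC1. Isg15 lies at chr4:156199424-156200818 on the minus strand, Ifit1 at chr19:34640871-34650009, Gbp2 at chr3:142620602-142638008 and Irf1 at chr11:53770014-53778374, each on the plus strand. The windows themselves are chr4:156200769-156201068, chr19:34640639-34640938, chr3:142620413-142620712 and chr11:53769764-53770063. Each is written 5′ to 3′ on the strand of its gene, and capitals mark ISRE-like letters in the first 3 and a GAS-like match in Irf1.
Isg15: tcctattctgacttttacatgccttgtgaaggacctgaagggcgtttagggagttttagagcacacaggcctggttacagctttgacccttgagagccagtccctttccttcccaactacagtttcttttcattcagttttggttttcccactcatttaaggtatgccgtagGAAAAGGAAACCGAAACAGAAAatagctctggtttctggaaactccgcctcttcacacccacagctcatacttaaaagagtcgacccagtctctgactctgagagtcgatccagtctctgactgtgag
Ifit1: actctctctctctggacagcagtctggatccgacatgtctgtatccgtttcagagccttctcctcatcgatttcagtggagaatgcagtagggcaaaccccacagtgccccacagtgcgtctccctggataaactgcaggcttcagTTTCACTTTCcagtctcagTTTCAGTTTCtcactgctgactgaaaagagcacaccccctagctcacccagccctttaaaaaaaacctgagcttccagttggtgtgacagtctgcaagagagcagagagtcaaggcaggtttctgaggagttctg
Gbp2: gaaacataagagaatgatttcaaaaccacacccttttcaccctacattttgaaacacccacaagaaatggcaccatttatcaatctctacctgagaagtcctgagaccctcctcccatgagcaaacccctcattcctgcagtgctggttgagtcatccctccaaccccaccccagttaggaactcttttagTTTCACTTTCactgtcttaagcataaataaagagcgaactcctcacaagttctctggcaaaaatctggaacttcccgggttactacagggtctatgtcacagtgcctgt
Irf1: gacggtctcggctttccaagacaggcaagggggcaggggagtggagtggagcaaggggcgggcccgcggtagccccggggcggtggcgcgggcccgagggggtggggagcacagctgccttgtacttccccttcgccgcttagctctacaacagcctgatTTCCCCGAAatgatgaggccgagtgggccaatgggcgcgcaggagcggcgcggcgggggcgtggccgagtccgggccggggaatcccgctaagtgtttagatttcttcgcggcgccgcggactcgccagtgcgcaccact
The Isg15 window held 3 overlapping ISRE-like matches, the Ifit1 window 2 and the Gbp2 window 1, while the Irf1 window shown held no ISRE-like match and 1 GAS-like match. Another Irf1 window, chr11:53770223-53770522, held neither motif and is not shown.

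In cancer cells, members lay on both sides of 1, as did all genes. A total of 16 of 36 members passed the level limit, and of these 6 had an interval above 1, 7 an interval below 1 and 3 an interval that held 1. A ratio over 1 was thus found in 37.5% of them, beside 59.4% of all genes. Intervals lay above 1 in 37.5% and below 1 in 43.75% of the members, beside 50.1% and 32.3% of all genes. None was at least 1.5 times higher (0.366% of all 6565 genes tested were) and 1 was at least 1.5 times lower (0.746% of all genes were). The median log2 ratio of the 16 was -0.03, beside 0.05 for all genes. In cancer cells with no UMI of 10 immune markers, a subset chosen after seeing the data, it was -0.29 over 19 members, beside 0.03 for all genes. Summed over all 36 members, the level was 2540 CPM with vehicle and 2183 CPM with ENZ, and Ifitm3 made up most of both sums.

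Ifi27l2a, a small interferon-inducible protein of the Ifi27 family (chr12:103442167-103443680), had the lowest ratio. It measured 74.1 CPM (72.5 to 75.8) with vehicle and 30.6 CPM (29.6 to 31.7) with ENZ, and the ratio was 0.413 (0.397 to 0.430). After each cell was thinned to 1000 UMIs, 8.14% of control cells (7.31 to 9.03) and 2.98% of ENZ cells (2.50 to 3.52) held an Ifi27l2a UMI, against 59.0% and 36.9% before thinning. NK cells, with median depths of 3945 and 4366 UMIs and a low level of the gene, had 7.80% (5.49 to 10.7) and 6.74% (3.64 to 11.2) when thinned alike. Free RNA, read as the Ifi27l2a UMIs of barcodes with at least 10 and under 500 UMIs, amounted to 23.0% and 9.38% of the Ifi27l2a UMIs per NK cell, and its part in these shares was not tested. Thinned alike, the shares were higher in T cells (41.0% and 40.5%), neutrophils (44.7% and 49.8%), monocytes (70.3% and 64.2%) and macrophages (51.1% and 34.0%). In control cDC1 the share was 5.88%.

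Isg15, a ubiquitin-like protein that is conjugated to other proteins during infection, measured 70.3 CPM in control cancer cells and 55.2 in ENZ cancer cells (ratio 0.785, 0.759 to 0.812). Ifitm3, which blocks virus entry at endosomal membranes, went from 1503 to 1194 CPM (0.794, 0.788 to 0.800). Bst2, which tethers virus particles to the cell surface, measured 156 and 131 CPM (0.839, 0.820 to 0.858). When ratios were scaled within ranges of transcript length, the log2 ratios of these 3 went from -0.35 to -0.20 for Isg15, from -0.33 to -0.18 for Ifitm3 and from -0.25 to -0.10 for Bst2. Smaller differences on the same side were seen in Xaf1 (0.895), Trim30a (0.914) and Lgals3bp (0.965), each with an interval below 1. Ifi35, Oasl2 and Ifi204 had intervals that held 1. Rtp4, a chaperone of cell surface receptors, was under the level limit at 14.5 and 10.3 CPM (0.709, 0.656 to 0.766). In cancer cells with no immune marker UMI, Rtp4 measured 24.0 and 12.1 CPM (0.503, 0.403 to 0.629).

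The other 6 members past the level limit lay on the higher side in ENZ cancer cells, by at most 1.16 times. These included both sensors past the level limit, Ifih1 (MDA5) at 20.8 and 24.2 CPM and Ddx58 (RIG-I) at 30.8 and 35.1 CPM, which recognise viral RNA in the cytosol. Irf1, a transcription factor induced by interferon gamma, measured 123 and 141 CPM (1.15, 1.12 to 1.17). Rsad2 (viperin), Parp14 and Samhd1, a dNTP hydrolase, had ratios of 1.11, 1.08 and 1.07.

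None of the 8 GTPases passed the level limit in cancer cells, and their summed level was 62.4 and 74.7 CPM (1.20, 1.16 to 1.24). Gbp2, a guanylate-binding protein that attacks pathogen vacuoles, had the highest ratio of all members at 7.70 and 13.8 CPM (1.79, 1.64 to 1.95). A Gbp2 UMI was found in 0.749% of thinned control cells and 1.61% of thinned ENZ cells. By the interval bound nearer 1, the members next after it were Gbp4 (1.41), Gbp3 (1.33), Ifit1 (1.26) and Cmpk2 (1.29), all under 10 CPM. In cancer cells with no immune marker UMI, Gbp3 and Ifit1 lay on the other side of 1, with log2 ratios of -0.073 and -0.098 and intervals that held 1. Reads of the guanylate-binding proteins may be shared between near-identical copies, so single values of this family are uncertain, and the same holds for Ifit1, Ifit3, Oas1a, Ifi204 and Ifitm3 with their paralogs.

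**Figure D1:**
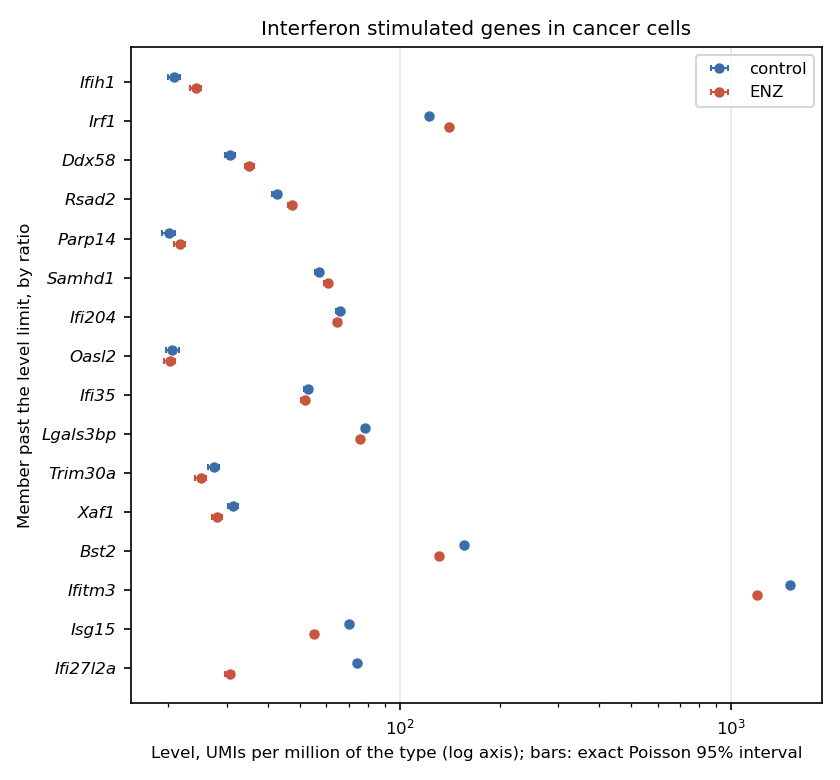
Levels of the 16 ISGs past the level limit in cancer cells, as CPM on a log axis, with the control library in blue, the ENZ library in red and bars for the exact Poisson 95% interval. Genes are ordered by ratio, from Ifi27l2a (74.1 and 30.6 CPM) at the bottom to Ifih1 (20.8 and 24.2 CPM) at the top, and most other pairs lie close together.

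RNA of immune marker genes in the cancer gate moved with the result, and its source was not tested. The 10 immune markers summed to 252 CPM in control and 97.2 CPM in ENZ cancer cells, with 10 of 10 lower, Cd74 the most abundant at 92.4 and 32.2 CPM, and none at 0. In cancer cells with no UMI of these markers, 377 with vehicle and 944 with ENZ, Ifi27l2a still measured 98.8 and 33.4 CPM, Isg15 109 and 67.3 CPM, and Gbp2 8.48 and 15.6 CPM. Irf1 measured 167 and 158 CPM there (0.942, 0.875 to 1.02), with an interval that held 1. These cells were 9.41% of control and 21.1% of ENZ cancer cells, with a median of 13784 and 16764 UMIs, and the part of immune RNA in the members' ratios was not tested. Free RNA amounted to 5.0% and 6.0% of the Ifi27l2a UMIs of cancer cells, the highest share among the members, with a median of 0.870% and 0.876%. In the cancer gate the 3 cancer cell markers (Krt8, Krt18 and Epcam) summed to 792 and 866 CPM. The 3 fibroblast markers summed to 468 and 434 CPM there. The 4 monocyte markers, with Fn1 the most abundant, summed to 448 and 471 CPM, and the 4 plasmacytoid dendritic cell markers, with Tcf4 the most abundant, to 426 and 426 CPM. The source of this RNA was not tested.

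ISGs were found in unequal shares of cancer cells. With each cell thinned to 10000 UMIs, which left out 372 control and 320 ENZ cells of lower depth, Ifitm3 was found in 99.9% of control and 99.8% of ENZ cells, with a median of 15 and 12 UMIs. Bst2 was found in 73.9% and 64.4%, Irf1 in 56.7% and 63.4%, and Isg15 in 35.9% and 27.4%. Gbp2 was found in 7.35% and 10.7%. Each share differed between the libraries on the same side as the level of its gene.

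The members also differed between dividing and non-dividing cancer cells. In the control library all 16 members past the level limit were higher, as CPM, in the 1284 non-dividing cells than in the 1661 dividing cells, with a median log2 difference of 0.62, while 49.8% of all genes past the limit were higher there and their median was -0.0021. In the ENZ library 15 of 16 were, with a median of 0.59, beside 50.6% and 0.0073 for all genes, and Samhd1 was the exception at -0.07. Dividing cells were deeper, with a median of 30125 UMIs against 14703 in the control, and the part of depth in this was not tested. The ENZ over control median was -0.06 in dividing and -0.05 in non-dividing cells, and Ifi27l2a had log2 ratios of -1.25 and -1.46. Single members differed more between the 2 states. Irf1 had ratios of 1.23 (1.19 to 1.28) in dividing and 1.04 (0.997 to 1.09) in non-dividing cells. Ifit1, under the level limit, had 1.45 (1.21 to 1.74) and 0.985 (0.821 to 1.18). Parp14 went the other way, with 1.04 (0.947 to 1.14) and 1.14 (1.02 to 1.28).

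In neutrophils, most members were higher in the ENZ library. Of 23 members past the level limit, 20 (87.0%) had a ratio over 1 and 12 (52.2%) an interval above 1, beside 48.6% and 14.9% of all genes, and 1 (4.35%) an interval below 1, beside 19.2%. The median log2 ratio was 0.32, beside -0.01 for all genes. At least 1.5 times higher were 6 members, or 26.1% (6.62% of all genes tested were), and at least 1.5 times lower were 0 (8.59% of all genes were). The 5 neutrophil markers not used by the gate summed to 7770 and 6418 CPM, with G0s2 the most abundant and none at 0. The rRNA-like transcripts are a list of 9 genes: Gm42418, AY036118, Lars2, Cmss1, Cdk8, Filip1l, Camk1d, Gphn and Gm19951. Whether their UMIs came from rRNA was not tested. The rRNA-like transcripts took 5.76% and 8.81% of the UMIs, and immediate early and heat shock genes summed to 11722 and 11011 CPM. Their part in the members' ratios was not tested.

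Usp18, the protease that removes ISG15 from proteins and dampens receptor signaling, measured 43.6 CPM in control and 96.4 CPM in ENZ neutrophils (2.21, 1.60 to 3.03). Ifit1, which binds viral RNA lacking a methylated cap, measured 132 and 271 CPM (2.05, 1.71 to 2.47). Parp14, an ADP-ribosyltransferase, measured 96.3 and 194 CPM (2.02, 1.62 to 2.50). These 3 had the highest ratios by the bound nearer 1.

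The sensors lay on the same side, with Ddx58 at 67.4 and 111 CPM (1.64), Ifih1 at 98.2 and 154 CPM (1.57) and Zbp1, a sensor of Z-form nucleic acid, at 83.0 and 111 CPM (1.33), each with an interval above 1. Gbp7 measured 39.8 and 63.8 CPM (1.60). Rsad2 (388 and 535 CPM), Oasl2 (252 and 345 CPM) and Irf1 (124 and 181 CPM) were under 1.5 times higher, with intervals above 1. Isg15 went the other way, from 1356 to 923 CPM (0.681, 0.626 to 0.740). Rtp4 (0.877) and Ifit2 (0.959) were the only others past the level limit with a ratio under 1, and both intervals held 1.

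The control neutrophil gate held 3 barcodes with 951, 755 and 504 UMIs of Col1a1, Col1a2 and Dcn, while the next barcode had 3. Without them the ratios were 2.14 for Usp18, 1.99 for Ifit1, 1.97 for Parp14, 1.62 for Ddx58, 1.59 for Gbp7 and 1.52 for Ifih1, so all 6 remained past 1.5.

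**Figure D2:**
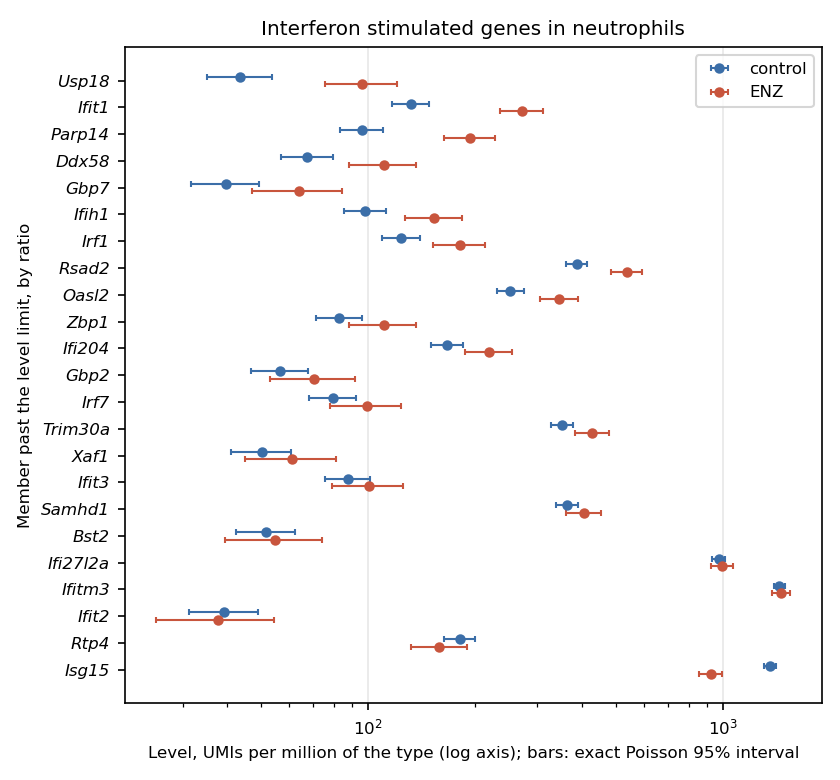
Levels of the 23 ISGs past the level limit in neutrophils, as CPM on a log axis, with the control library in blue, the ENZ library in red and bars for the exact Poisson 95% interval. The ENZ point lies to the right for 20 members, furthest for Usp18 (43.6 and 96.4 CPM), and to the left for Isg15 (1356 and 923 CPM).

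In monocytes, 25 members passed, with a median log2 ratio of 0.17 beside 0.04 for all genes, and of 0.05 when ratios were scaled within ranges of transcript length. Higher at least 1.5 times were 2 members, or 8.0% (6.32% of all genes were), and lower were 0 (3.52% of all genes were), so the counts lay near the background. Rsad2 measured 49.5 and 98.4 CPM (1.99, 1.7 to 2.33) and Ifit2 17.6 and 27.6 CPM (1.57, 1.19 to 2.08). Ifi204, a DNA-binding protein of the p200 family, measured 188 and 246 CPM (1.31). On the lower side were Ifitm3 at 2921 and 2067 CPM (0.708), Bst2 at 294 and 204 CPM (0.694), Ifi35 at 56.2 and 39.1 CPM (0.695) and Ifi27l2a at 1787 and 1311 CPM (0.734), all with intervals below 1. The 4 monocyte markers summed to 1499 and 1953 CPM, the 3 fibroblast markers in the same gate to 179 and 29.3 CPM, the 4 NK cell markers to 62.0 and 25.9 CPM and the 4 macrophage markers to 498 and 446 CPM, with none at 0. rRNA-like transcripts took 4.71% and 10.4% of the UMIs, and 11 of 12 immediate early and heat shock genes were lower. The part of these in the ratios was not tested.

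In macrophages, 25 members passed, with a median log2 ratio of 0.18 beside 0.14 for all genes, and of -0.0047 when scaled within ranges of length. Higher was 1 member, or 4.0% (8.63% of all genes were), and lower were 2, or 8.0% (3.76% of all genes were). Isg15 measured 236 and 125 CPM (0.531, 0.484 to 0.582) and Ifi27l2a 915 and 563 CPM (0.615, 0.588 to 0.642). Ifitm3 was also lower at 1537 and 1046 CPM (0.681). On the higher side were Ddx58 at 21.1 and 32.7 CPM (1.55, 1.25 to 1.92), Gbp7 at 58.2 and 79.6 CPM (1.37) and Ifi204 at 108 and 143 CPM (1.33). Ifih1, though a sensor like Ddx58, was lower at 167 and 129 CPM (0.774, 0.703 to 0.850). The macrophage gates also differed in other RNA. The 4 monocyte markers summed to 834 and 1421 CPM in them, with Fn1 the most abundant and none at 0, and the 4 macrophage markers to 1317 and 1630 CPM. rRNA-like transcripts took 3.74% and 10.2% of the UMIs, and immediate early and heat shock genes summed to 15515 and 9964 CPM (0.642). Their part in these ratios was not tested.

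In T cells, 19 members passed, with a median log2 ratio of 0.25 beside 0.07 for all genes. Higher were 3, or 15.8% (7.40% of all genes were), and lower was 1, or 5.26% (4.09% of all genes were). The 4 of 8 GTPases that passed had a median of 0.56, and 1 of them, Gbp7, had an interval above 1, at 57.1 and 89.1 CPM (1.56, 1.23 to 1.98). Igtp had a ratio of 1.01, and under the level limit Gbp2 had 0.976 and Gbp5 0.930. Gbp3 measured 17.9 and 27.1 CPM (1.51, 0.988 to 2.36) and Lgals3bp 17.4 and 27.5 CPM (1.58, 1.03 to 2.48). Parp14 (1.34) and Trim30a (1.26), an E3 ligase that limits innate signaling, had intervals above 1. Isg15 measured 99.1 and 60.6 CPM (0.611), Ifitm3 180 and 121 CPM (0.672) and Bst2 143 and 114 CPM (0.796), each with an interval below 1. In the T cell gate the 4 T cell markers summed to 575 and 728 CPM, the 4 NK cell markers to 538 and 370 CPM with Nkg7 the most abundant, and the 4 macrophage markers to 55.4 and 24.2 CPM, with none at 0. The 3 cancer cell markers there summed to 35.8 and 68.8 CPM. rRNA-like transcripts took 5.77% and 11.4% of the UMIs. The part of these in the ratios was not tested.

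In NK cells, 14 members passed, with a median log2 ratio of 0.03 beside 0.04 for all genes. Higher was 1, or 7.14% (5.72% of all genes were), and lower was 1, or 7.14% (3.60% of all genes were). Ddx58 measured 29.7 and 45 CPM (1.51, 1.04 to 2.19) and Gbp7 41.6 and 59.4 CPM (1.43, 1.04 to 1.96). Isg15 measured 72.6 and 40.8 CPM (0.561, 0.399 to 0.777) and Ifitm3 110 and 85.8 CPM (0.777). The other 10 members (71.4%, beside 72.8% of all genes) had intervals that held 1, among them Lgals3bp (1.26) and Samhd1 (0.901). In the NK cell gate the 4 NK cell markers summed to 1555 and 1293 CPM, the 5 neutrophil markers to 98.5 and 35.7 CPM and the 4 macrophage markers to 31.8 and 12.7 CPM, with none at 0. The 3 cancer cell markers went the other way, from 28.9 to 55.2 CPM, as did the 3 endothelial cell markers, from 124 to 198 CPM. The 4 plasmacytoid dendritic cell markers went from 180 to 238 CPM. rRNA-like transcripts took 6.02% and 10.0% of the UMIs. The part of these in the ratios, that of Isg15 included, was not tested.

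In cDC1, which present antigen to CD8+ T cells, 7 members passed in 136 control and 60 ENZ cells. Their median log2 ratio was 0.33, beside -0.01 for all genes. Higher were 2, or 28.6% (6.75% of all genes were), and lower was 1, or 14.3% (6.40% of all genes were). Ifitm3 measured 520 and 834 CPM (1.60, 1.41 to 1.83) and Samhd1 135 and 219 CPM (1.62, 1.25 to 2.1). Isg15 measured 62.4 and 91.3 CPM (1.46, 0.975 to 2.17) and Bst2 120 and 99.8 CPM (0.829, 0.582 to 1.16). Irf1 was at 126 CPM in control and 40.3 CPM in ENZ cDC1 (0.321, 0.187 to 0.520). In the cDC1 gate the 3 cDC1 markers summed to 1192 and 1378 CPM. The 5 neutrophil markers went from 109 to 65.8 CPM and the 4 mature dendritic cell markers from 81.4 to 40.3 CPM. The 4 monocyte markers went the other way, from 29.9 to 53.1 CPM, as did the 3 cancer cell markers, from 18.1 to 40.3 CPM. Immediate early and heat shock genes summed to 13480 and 7238 CPM (0.537), and rRNA-like transcripts took 3.94% and 8.61% of the UMIs. The part of these in the ratios, that of Irf1 included, was not tested.

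**Figure D3:**
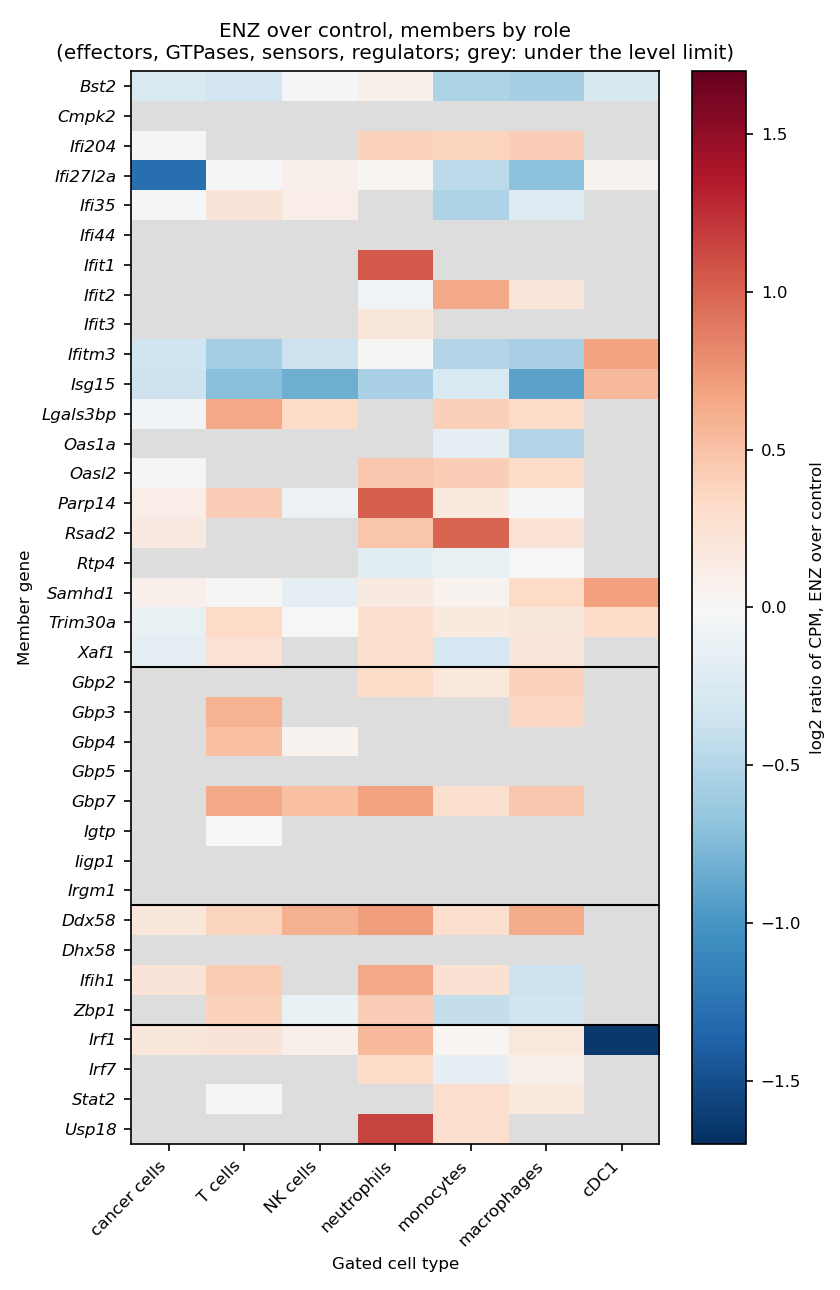
Log2 ratio of CPM, ENZ over control, of the 36 ISGs in 7 gated types, with rows grouped by role and grey where a gene was under the level limit. The neutrophil column is mostly red, with Usp18 at 1.14 and Ifit1 at 1.04, the Isg15 row is blue in 6 of 7 types, and the lowest values are Irf1 in cDC1 (-1.64) and Ifi27l2a in cancer cells (-1.28).

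Across types, 7 members passed the level limit in all 7 types and 6 in none. Of the 23 that passed in at least 3 types, 5 (21.7%) had a ratio over 1 wherever they passed and 1 (4.35%) a ratio under 1, beside 20.2% and 11.7% of all 5590 genes that passed in at least 3 types. Ddx58 was above 1 in 6 of 6 types, Gbp7 in 5 of 5, Rsad2 in 4 of 4, and Gbp2 and Stat2 in 3 of 3. Their longest spliced transcripts had 3874, 5614, 4189, 2516 and 4397 bases in that order. In every type, most genes of 3000 bases and over lay on the higher side, and the part of length in these ratios was not tested. Rtp4 was under 1 in 3 of 3, each time with an interval that held 1. Isg15 was under 1 in 6 of 7 types, each of the 6 with an interval below 1. Of the 27 members that passed in at least 2 types, 6 (22.2%) had intervals above 1 in some types and below 1 in others, beside 18.1% of all 6550 such genes.

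The levels themselves were ordered by cell type. Of the 30 members that passed in at least 1 type, 14 (46.7%) had their highest level in neutrophils in both libraries, among them Isg15 and Rsad2, beside 12.2% of all 8499 such genes. Ifit1 and Ifit3, also counted here, passed the level limit in neutrophils only, so they entered the count through the type where they were highest. The share over all genes can hold such genes too. Monocytes had the highest level of 5 (16.7%, beside 3.55% of all genes), including Ifi27l2a and Ifitm3, and cDC1 of 2 (6.67%, beside 6.44%). Cancer cells had the lowest level of 7 (23.3%, beside 13.4%). Summed over all members, neutrophils measured 6718 and 7400 CPM, monocytes 6958 and 5689 CPM, macrophages 4271 and 3423 CPM, T cells 2094 and 2177 CPM, cDC1 1671 and 2221 CPM, and NK cells 1082 and 1113 CPM.

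**Figure D4:**
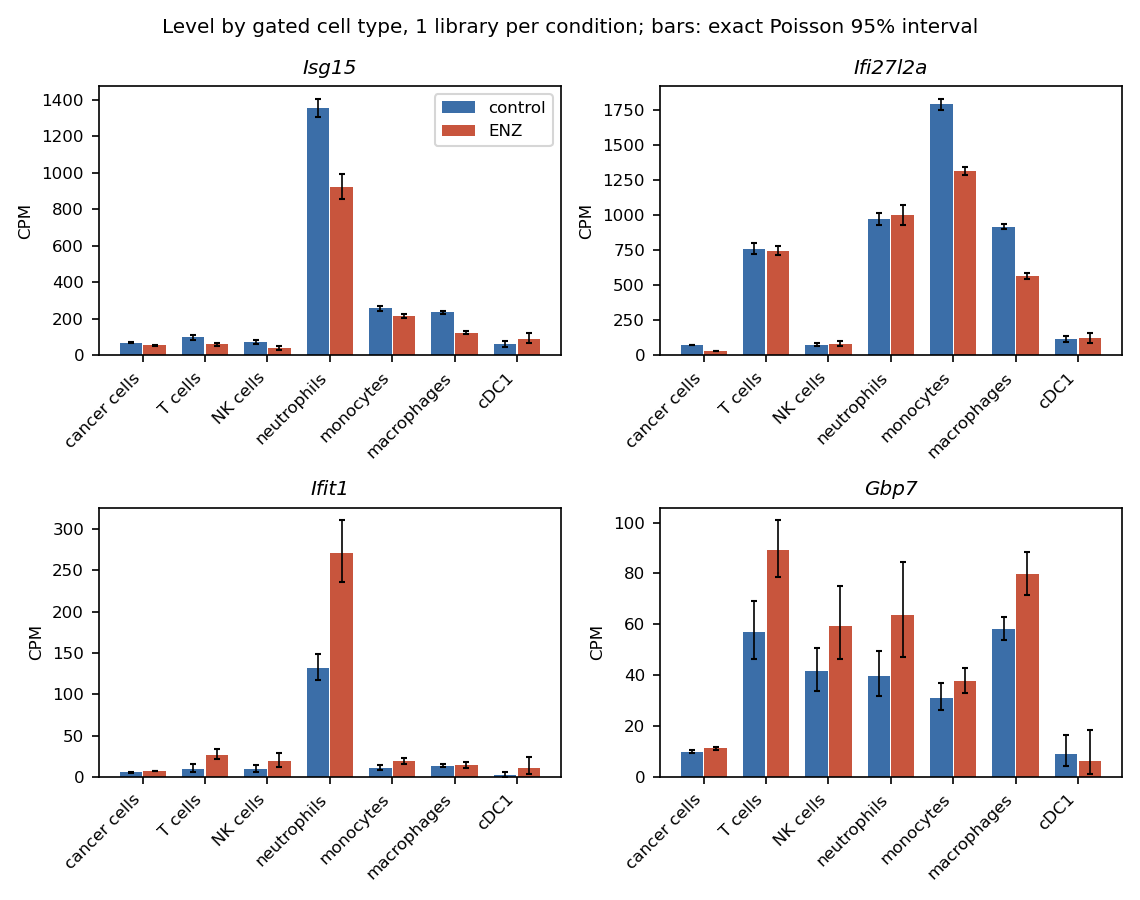
Level in CPM of Isg15, Ifi27l2a, Ifit1 and Gbp7 in each gated type, 1 bar per library (blue control, red ENZ), with the exact Poisson 95% interval. Isg15 and Ifit1 stand highest in neutrophils (1356 and 923 CPM, 132 and 271 CPM), Ifi27l2a in monocytes (1787 and 1311 CPM), and Gbp7 is higher in the ENZ library in 5 types past the level limit.

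Transcript length moved with the ratios. In cancer cells, genes whose longest spliced transcript was under 1500 bases had a median log2 ratio of -0.15 and 86.6% of them were lower in the ENZ library, while genes of 5000 bases and over had a median of 0.16. The 5 members under 1500 bases that passed (Ifi27l2a, Isg15, Ifi35, Ifitm3 and Bst2) were all lower in cancer cells, with a median of -0.33. The same 5 were lower in 5 of 5 in monocytes and in macrophages, where 83.9% and 79.1% of all genes of that length were lower. They were lower in 4 of 5 in T cells and in 3 of 5 in NK cells, near the 76.7% and 73.2% of all such genes. In neutrophils 1 of 4 was lower, and in cDC1 1 of 4, beside 71.2% and 69.2%. rRNA-like transcripts also took 1.61% of the control and 3.90% of the ENZ UMIs of cancer cells. The part of either in the members' ratios was not tested.

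**Figure D5:**
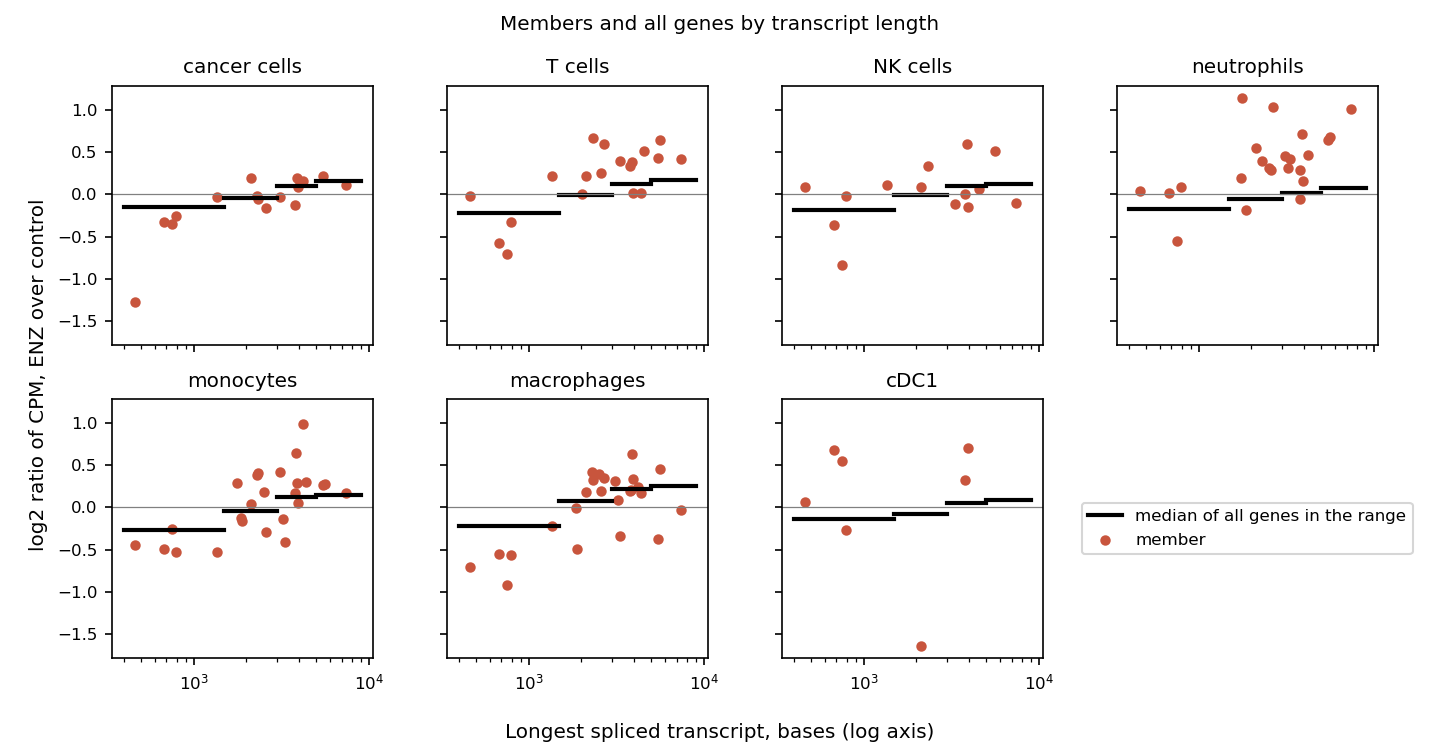
Log2 ratio of CPM, ENZ over control, against the longest spliced transcript in bases on a log axis, 1 panel per type, with red points for ISGs past the level limit and black lines for the median of all genes in 4 ranges of length. The black line lies lowest for the shortest genes in every panel (-0.15 in cancer cells), and the neutrophil points lie mostly above it.

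Of the interferon ligands, 9 type I and III genes were searched for in the 7 types. Only Ifnb1 (48 and 33 UMIs), Ifnk (12 and 14), Ifne (1 and 3) and Ifna2 (1 and 0) had any UMI, and the other 5 had none in either library, so that no difference in them was detectable at this depth. Ifnb1 UMIs numbered 23 and 23 in cancer cells (0.884, 0.474 to 1.65), 19 and 1 in macrophages (0.120, 0.0029 to 0.757), 5 and 8 in monocytes (1.22, 0.353 to 4.75) and 1 and 1 in neutrophils. Ifng, the type II interferon, was found mainly in NK cells at 113 and 123 CPM (1.09, 0.881 to 1.33) and in T cells at 70.6 and 62.7 CPM (0.889, 0.703 to 1.13), and both intervals held 1. Il18, a cytokine that induces interferon gamma, measured 24.4 and 19.9 CPM in cancer cells (0.816), and its intervals held 1 in macrophages (0.855) and monocytes (1.10). Il27 measured 21.6 and 20.6 CPM in monocytes (0.953, 0.724 to 1.26).

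Of 6 receptor genes, 5 passed in cancer cells, and none was past 1.5, beside 0.366% of all genes higher and 0.746% lower. Both chains of the interferon gamma receptor were on the higher side there, Ifngr1 at 30.2 and 36.3 CPM (1.20) and Ifngr2 at 31.7 and 40.9 CPM (1.29). Ifnar1 measured 25.8 and 29.1 CPM (1.13), Ifnar2 79.3 and 79.2 CPM (0.999) and Il10rb 26.7 and 27.6 CPM (1.03). In T cells Ifngr2 was lower, at 40.3 and 20.7 CPM (0.513, 0.357 to 0.735), and Ifngr1 higher, at 310 and 402 CPM (1.30). In cDC1 Ifngr1 measured 120 and 204 CPM (1.69, 1.29 to 2.22). In macrophages Ifnar1 measured 58.5 and 85.1 CPM (1.46) and Ifngr1 105 and 147 CPM (1.40), with intervals above 1.

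Of 8 genes listed with the signal inside the cell, 6 passed in cancer cells, 3 above 1 and 3 below, with 0 at least 1.5 times higher and 1 lower, beside the 0.366% and 0.746% of all genes given above. Jak1, a kinase of both receptor types, measured 301 and 288 CPM (0.957, 0.942 to 0.972) and Jak2, a kinase of the interferon gamma receptor, 69.7 and 86.8 CPM (1.25, 1.21 to 1.28). Ptpn2, a phosphatase of Janus kinases, measured 75.2 and 76.8 CPM (1.02), Isg20, an exonuclease, 33.6 and 40.2 CPM (1.20), and Socs1, a feedback inhibitor, 21.2 and 19.7 CPM (0.928). Socs3, another inhibitor of cytokine signaling, was at 225 and 113 CPM (0.499, 0.488 to 0.510), beside 12 of 12 immediate early and heat shock genes that were lower there, at 6449 and 4339 CPM in sum.

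Among 61 further ISGs, 59 were in the files and 16 passed in cancer cells. Of these, 8 were above 1 and 8 below, while 59.4% of all genes were above 1. None was past 1.5, beside 0.366% of all genes higher and 0.746% lower. The lowest were Cxcl10, a chemokine for T cells, at 125 and 86.1 CPM (0.691), Ifitm2 (0.851) and Ifitm1 (0.886), and the highest Rnf213 at 90.9 and 112 CPM (1.24), Tap1 (1.22) and Nlrc5 (1.15), the last 2 of which serve antigen presentation. In neutrophils 27 passed, of which 10 were at least 1.5 times higher and 1 lower, beside 6.62% and 8.59% of all genes. Slfn5 measured 100 and 225 CPM there (2.25, 1.83 to 2.77). In T cells 31 passed, of which 5 (16.1%) were higher and 4 (12.9%) lower, beside 7.40% and 4.09% of all genes, and in NK cells 23 passed, of which 1 (4.35%) was higher and 4 (17.4%) lower, beside 5.72% and 3.60%. In monocytes 6 of 43 were higher and 2 lower, beside 6.32% and 3.52% of all genes. In cDC1 4 of 17 were higher and 0 lower, beside 6.75% and 6.40% of all genes. In macrophages 40 passed, of which 4 (10.0%) were at least 1.5 times higher and 2 (5.0%) lower, near the 8.63% and 3.76% of all genes. Among them Cxcl9 measured 15.3 and 52.4 CPM (3.43, 2.79 to 4.22) and Cd274 115 and 189 CPM (1.65). Ifitm1 was on the lower side in T cells (91.8 and 35.7 CPM), NK cells (85.4 and 32.3 CPM) and macrophages (409 and 201 CPM). Slfn5, Cxcl9, Cd274 and the immune-type values of Ifitm1 were picked after their values were seen.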

How the data were processed

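The authors aligned the 10x Genomics 3′ reads to mm10 with Cell Ranger and deposited unfiltered matrices of UMI counts, 1 per library, with no normalization. The labels give Cell Ranger 2.1.1, whereas the file header gives 7.2.0. Barcodes, gates, sums, intervals and figures were computed with Python 3.11.15, numpy 2.4.6, scipy 1.17.1, pandas 2.3.3 and matplotlib 3.10.9. Immune types needed at least 1 Ptprc UMI, 2 distinct markers and no rival score over 0.5 of the leading one, which set aside barcodes with markers of several types. No doublet caller was run. Gate minimums were set after cell numbers were seen. Intervals are exact Poisson for levels, exact conditional binomial for ratios and Clopper-Pearson for shares. With 1 library per condition no count model was fitted. Ratio and interval code was tested on simulated data. Positions and lengths came from GENCODE M21 (GRCm38), which held 32158 of 32285 gene identifiers.

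The members and lists were chosen with earlier results of these data known. Named in cancer cells were the 5 members highest and 5 lowest by the interval bound nearer 1 and any past 1.5, in each immune type the 3 highest and 3 lowest, members on 1 side of 1 in every type where they passed, ligands and receptors past the level limit, and the 3 highest and 3 lowest further ISGs. Up to 15 alternatives were tried, 3 of them chosen after seeing the data. Some results of the signaling genes are not reported here.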

Additional observations from a re-analysis of the deposited data

Results flagged for a closer look

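Of 27 members that passed the level limit in at least 2 types, 6 (22.2%) had counting intervals on opposite sides of 1 in different cell types, beside 18.1% of all 6550 such genes. The difference between types was not tested, since each type has 1 library per condition. Ifitm3 had a ratio of 1.60 in cDC1 and 0.672 in T cells. Irf1 had 1.46 in neutrophils and 0.321 in cDC1. Zbp1 had 1.33 in neutrophils and 0.754 in monocytes. Ifih1 had 1.57 in neutrophils and 0.774 in macrophages. Lgals3bp had 1.58 in T cells and 0.965 in cancer cells. Trim30a had 1.26 in T cells and 0.914 in cancer cells.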

How the results depend on the processing

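No paired analysis was possible because only 1 library was made per condition. Over the 12 alternatives, the median log2 ratio of the members lay between 0.29 and 0.44 in neutrophils (0.32 as reported), 0.14 and 0.29 in T cells (0.25) and -0.016 and 0.083 in NK cells (0.03). It went down to -0.0047 in macrophages (0.18) and 0.05 in monocytes (0.17) when ratios were scaled within ranges of transcript length, and up to 0.66 in cDC1 (0.33) with the level limit at 5 CPM and 20 UMIs. In cancer cells it was -0.29 in cells with no UMI of the immune markers, where 2 members were at least 1.5 times lower, in place of -0.03 and 1. With the level limit at 5 CPM and 20 UMIs, 1 member, Gbp2, was at least 1.5 times higher in cancer cells in place of 0. In cells with no UMI of the immune markers Gbp3 and Ifit1 turned to -0.073 and -0.098. Scaling within ranges of length, also chosen after seeing the data, gave -1.12 for Ifi27l2a. Of the 10 named members, 8 kept their side of 1 in all 12 alternatives. The share of cancer cells with a UMI differed by -5.16 percentage points for Ifi27l2a after thinning and by -22.1 without, and by 0.862 and 5.18 points for Gbp2. At this depth 7 members passed the level limit in cDC1 and 14 in NK cells, and the others could not be compared there.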
